A study of Mus musculus with 23 samples.

Results

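Vegfa, Ndrg1, Pkm and Slc2a1 are genes of the response to low oxygen and of sugar use, and they are described here across pairs of mouse skin tumours with and without an induced TGF-beta transgene. Every probe whose symbol in the platform annotation was one of these 4 names was taken, which gave 5 probes of 4 genes, out of 9596 probes and 6795 named genes. Vegfa had 2 probes, called probe 1 (648089_1) and probe 2 (648620_1), and Ndrg1 (650980_1), Pkm (641768_1) and Slc2a1 (650207_1) had 1 each. The genes were picked with their ratios in papillomas and carcinomas already known. Their class values below are therefore a description, and no p-value is given for them.

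In cells with enough oxygen, prolyl hydroxylases mark the HIF alpha subunits for destruction through the VHL ubiquitin ligase. When oxygen falls, HIF alpha persists, pairs with ARNT and binds short DNA elements near its target genes. Vegfa encodes the secreted ligand that drives the growth of blood vessels through the receptor Kdr. Slc2a1 encodes GLUT1, the main glucose importer of keratinocytes, and Pkm encodes pyruvate kinase M, which makes pyruvate and ATP at the end of glycolysis. Ndrg1 is a cytoplasmic protein of the NDRG family that is induced by low oxygen and during epithelial differentiation.

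The bigenic mice carried K5rTA, a tetracycline-controlled transactivator under the keratin 5 promoter of basal keratinocytes, together with tetOTGFbeta, the transgene it switches on. The monogenic mice carried K5rTA only. The labels give an age of 7 to 12 weeks, which cannot be the age at harvest of mice whose carcinomas arose in weeks 25 to 35. All mice were FVB. They received 100 µg of the carcinogen DMBA once and then 5 µg of the tumour promoter TPA 2 times a week for 20 weeks, and both genotypes ate chow with 1 g/kg doxycycline for 48 h, after a 3 h fast, before harvest. Benign papillomas arose by weeks 12 to 14 and squamous cell carcinomas in weeks 25 to 35, with the stage read on stained sections. Each of 23 two-colour arrays held 1 bigenic and 1 monogenic tumour of the same class. They covered 8 bigenic and 7 monogenic papillomas in 11 pairs, and 5 bigenic and 4 monogenic carcinomas in 7 pairs. Pairs share tumours, and the labels do not say whether tumours with related names, such as 228A and 228B, grew on the same mouse, so p-values measure the spread between pairs taken as independent.

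All values are log2 ratios. The labels do not say which dye is the numerator. Ratios were turned so that arrays with the bigenic tumour in Cy3 and in Cy5 run the same way. A value on the positive side means more RNA in the bigenic tumour if the deposited ratio is Cy5 over Cy3, and less if it is Cy3 over Cy5, so sides and not directions are given. Each array was set to a median of 0. The bigenic tumour was in Cy3 on 18 arrays and in Cy5 on 5, and 5 pairs were measured both ways. The arrays held 6729 to 9573 measured probes each, and their spread (SD over probes) ran from 0.29 to 1.20, widest on papilloma array 2 (tumours 1762D and 257B). The files hold ratios, so the labelled tissue could not be checked by marker levels. In bulk tumours, fewer cells of a type and less RNA per cell cannot be told apart.

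The promoters are shown because HIF binds the core letters ACGTG or GCGTG. The part of HIF in the member ratios was not tested. RefSeq's promoter table (GRCm38.p6) listed 2 starts for Pkm, 2 for Vegfa and 1 for Slc2a1, each with 300 bases. Below are the 120 bases before 3 of these starts, read 5′ to 3′ on the gene's strand, with the core letters on either strand in capitals.
Slc2a1, chr4:119108625-119108744, + strand: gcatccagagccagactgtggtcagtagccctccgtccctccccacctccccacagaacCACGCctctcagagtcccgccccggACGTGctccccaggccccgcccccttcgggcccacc
Pkm, chr9:59657107-59657226, + strand: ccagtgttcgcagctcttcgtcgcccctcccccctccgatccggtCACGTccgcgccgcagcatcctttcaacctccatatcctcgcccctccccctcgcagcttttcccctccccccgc
Vegfa, chr17:46032378-46032497, - strand: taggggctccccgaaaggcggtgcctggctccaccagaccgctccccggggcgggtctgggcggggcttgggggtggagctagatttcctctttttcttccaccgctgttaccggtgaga
Slc2a1 had 2 matches in its 300 bases, and the Pkm start shown also had 2, of which 1 lay past the start. The Vegfa start shown had 0 matches in its 300 bases, and the other start in the table had 2, at positions -218 and -211 from it. The 300 bases of that other start (chr17:46025114-46025413, - strand) lie downstream of the start shown, and so do its matches. The other Pkm start had 0. Of all 32851 promoters in the table, 14380 (43.8%) held the letters, so a match is common and describes the sequence only.

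Ndrg1 was on the positive side in papillomas and mostly on the negative side in carcinomas. In papilloma pairs its log2 ratio was lowest at 0.25, had a median of 0.63 and was highest at 1.94, and 10 of 10 measured pairs were positive. Over the whole table, 31 of 8966 tested probes (0.346%) were positive in every papilloma pair measured. Ndrg1 was chosen with these ratios known and the pairs share tumours, so nothing is read from this share. In the 7 carcinoma pairs the lowest value was -2.62, the median -1.11 and the highest 0.53, with 1 pair positive. The classes overlapped only through that carcinoma pair, 236 with 257A. The plain means were 0.72 ± 0.49 (SD, n = 10) in papillomas and -0.995 ± 1.01 (SD, n = 7) in carcinomas.

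**Figure D1:**
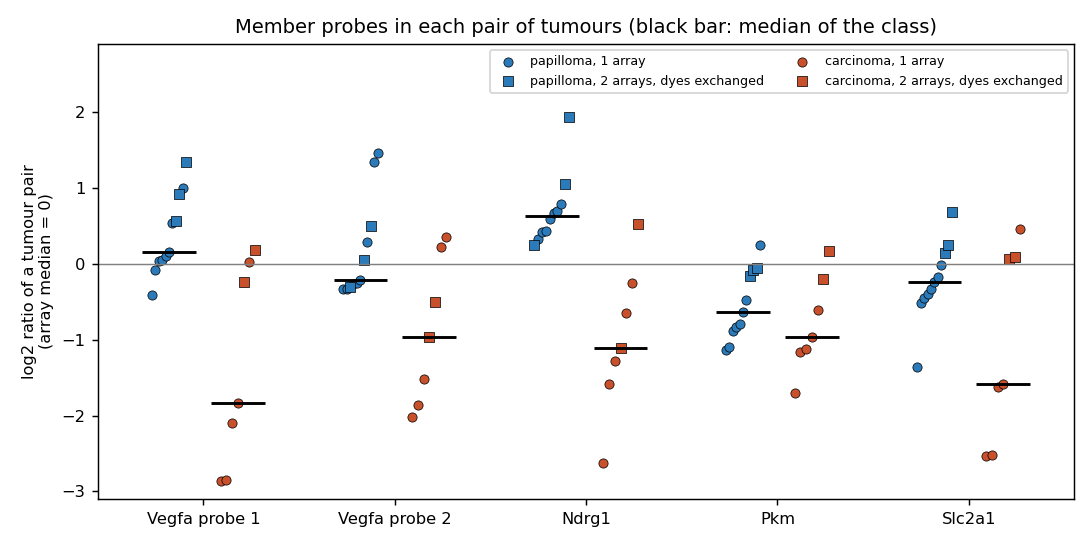
Log2 ratio of each member probe (y axis, array median at 0) in each tumour pair, papillomas in blue and carcinomas in orange, with a bar at the class median; squares are pairs measured in both dye orientations. Ndrg1 lies above 0 in all 10 measured papilloma pairs and below 0 in 6 of 7 carcinoma pairs, and Pkm has medians below 0 in both classes.

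Vegfa, the vessel growth ligand, split in the same way on probe 1 and less clearly on probe 2. On probe 1 the papilloma pairs ran from -0.41 through a median of 0.15 to 1.35, with 9 of 11 positive, and the carcinoma pairs from -2.87 through -1.83 to 0.18, with 2 of 7 positive. On probe 2 the papilloma pairs ran from -0.34 through -0.21 to 1.47, with 5 of 11 positive, and the carcinoma pairs from -2.02 through -0.97 to 0.36, with 2 of 7 positive. The 2 classes overlapped on both probes. The probes thus shared the negative side in most carcinoma pairs, but their papilloma medians lay on opposite sides of 0. Across the 18 pairs, after each class mean was removed, their Spearman correlation was 0.58. The largest gap between the probes was in carcinoma pair 236 with 241A, where probe 1 read -2.09 and probe 2 read 0.22.

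Slc2a1, the glucose importer, lay close to 0 in papillomas and far on the negative side in 4 of 7 carcinoma pairs. Its papilloma values ran from -1.36 through a median of -0.23 to 0.69, with 3 of 11 positive. In carcinomas they ran from -2.53 through -1.59 to 0.46, with 3 of 7 positive. The carcinoma values lay in 2 sets. Pairs 1684A with 242, 236 with 241A, 170 with 242 and 1687 with 221 read -2.53, -2.52, -1.63 and -1.59. The pairs 237 with 241A, 236 with 257A and 237 with 257A read 0.07, 0.09 and 0.46. Their tumours are also those of 236 with 241A, and pairs 1684A with 242 and 170 with 242 share tumour 242. The 7 carcinoma pairs thus fall into 3 groups linked by shared tumours. The 4 negative pairs were also those with the widest carcinoma arrays (SD 0.75 to 0.99, against 0.48 to 0.58 on the other 5 arrays), and each was measured with the bigenic tumour in Cy3 only. With all arrays scaled to the same spread, the fitted carcinoma ratio of Slc2a1 was -0.53 in place of -0.83, and that of Vegfa probe 1 was -0.77 in place of -1.08.

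Those same 4 pairs were also the most negative for Vegfa probe 1, at -2.86, -2.09, -1.83 and -2.87 in the order above. The 3 pairs with Slc2a1 near 0 read 0.18, -0.24 and 0.02 on that probe. Across all 18 pairs, after each class mean was removed, the Spearman correlation of Slc2a1 with Vegfa probe 1 was 0.84. Within papillomas it was 0.62 over 11 pairs, and within carcinomas 0.68 over 7. Among 6386 genes, Slc2a1 ranked 5 in likeness to Vegfa probe 1. Vegfa probe 2 was less like it, with a correlation of 0.47 with Slc2a1. Ndrg1 had 0.49 with Slc2a1 and 0.44 with Vegfa probe 1 over 17 pairs. Papilloma pairs 1684B with 257B, 228A with 257B and 228B with 257CE were measured in both orientations. They read 0.25, 0.14 and 0.69 for Slc2a1, while the papilloma pairs measured with the bigenic tumour in Cy3 only were all negative. On Vegfa probe 1 they read 1.35, 0.56 and 0.92, and the other papilloma pairs ran from -0.41 to 0.99. The part of the dye in these correlations was not tested. Pairs share tumours, arrays and RNA, so these correlations are descriptions.

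**Figure D2:**
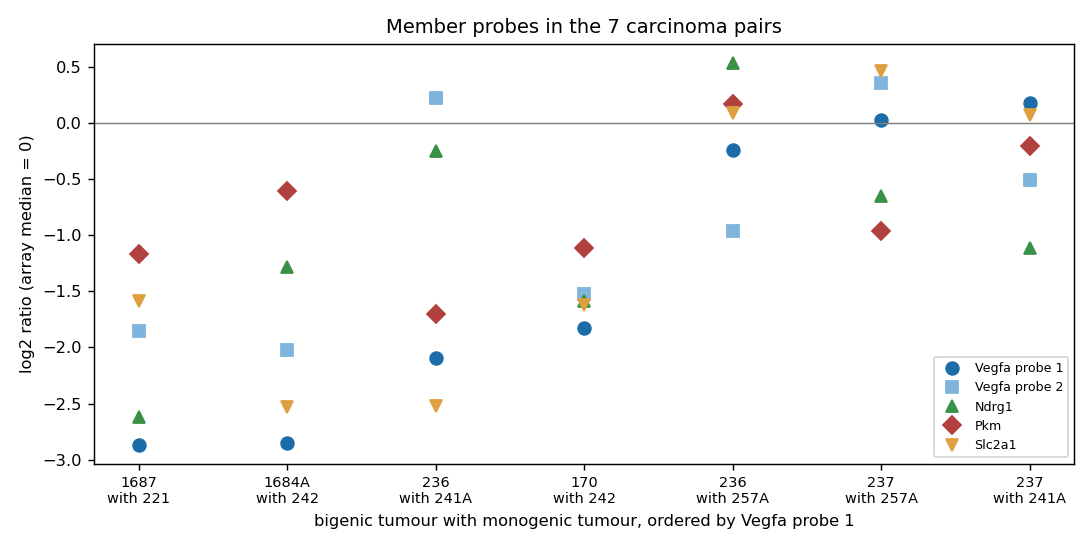
Log2 ratio of the 5 member probes (y axis) in the 7 carcinoma pairs (x axis), ordered by Vegfa probe 1. Vegfa probe 1 and Slc2a1 are both below -1.5 in the 4 pairs on the left and near 0 in the 3 on the right, while Ndrg1 is lowest in pair 1687 with 221.

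Pkm, the pyruvate kinase gene, was on the negative side in most pairs of both classes. Most pairs were measured with the bigenic tumour in Cy3 only. With it in Cy5 the turned Pkm ratio was positive on 3 of 3 papilloma and 2 of 2 carcinoma arrays. Its papilloma pairs ran from -1.13 through a median of -0.64 to 0.26, with 1 of 11 positive, and its carcinoma pairs from -1.70 through -0.96 to 0.17, with 1 of 7 positive. The 2 classes overlapped over most of their range. Pkm had a correlation of 0.66 with Slc2a1 and of 0.18 with Ndrg1. The part of the dye in these correlations was not tested.

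In a limma fit over all probes, with pairs weighted by their number of arrays, Ndrg1 had a fitted log2 ratio of 0.80 ± 0.22 (SE) in papillomas and -0.84 ± 0.27 in carcinomas. Vegfa probe 1 had 0.50 ± 0.25 and -1.08 ± 0.31, and Vegfa probe 2 had 0.16 ± 0.20 and -0.86 ± 0.25. Slc2a1 had -0.09 ± 0.23 and -0.83 ± 0.29, and Pkm -0.44 ± 0.16 and -0.63 ± 0.20. The carcinoma minus papilloma differences were -1.64 ± 0.35 for Ndrg1, -1.59 ± 0.40 and -1.02 ± 0.32 for the Vegfa probes, -0.74 ± 0.37 for Slc2a1 and -0.18 ± 0.26 for Pkm. All differences were on the negative side, and that of Pkm was smaller than its error.

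Few probes passed an adjusted p of 0.05 (limma, Benjamini-Hochberg over 8966 probes). In papillomas 1 probe passed (0.0112%) and 0 of the 5 member probes did, with 2 member probes at an unadjusted p under 0.05, as were 9.11% of all probes. In carcinomas 5 probes passed (0.0558%) and 0 member probes did, with 5 member probes at an unadjusted p under 0.05 against 9.88% of all probes. For the difference between the classes 22 probes passed (0.245%), Ndrg1 among them. That call was lost in 15 of 18 fits that left out 1 pair, and with the bigenic tumour as a block, linked tumours averaged or a term for the range of experiment numbers. For the difference 3 member probes had an unadjusted p under 0.05, against 7.19% of all probes. Since the members were chosen by these same contrasts, nothing is read from these counts.

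In the 5 pairs measured in both dye orientations, a ratio set by the tumours alone would change sign as deposited when the dyes are exchanged, and one set by the dye alone would keep it. Over all probes 46.3% to 55.2% changed sign in a pair, and the deposited ratios of its 2 arrays had correlations of -0.33 to 0.05, so the sign in 1 pair says little about a single probe. Ndrg1 changed sign in 5 of 5 such pairs. In papilloma pair 1684B with 257B, for example, its deposited ratio was -2.10 with the bigenic tumour in Cy3 and 1.78 with it in Cy5. Each Vegfa probe changed sign in 4 of 5 pairs. Slc2a1 did so in 1 of 5 and Pkm in 0 of 5. Ndrg1 was positive after turning on every papilloma array that measured it, so its sign changes in papilloma pairs restate that side. The members were chosen with their class ratios known, and the share of all probes that changed sign in 5 of 5 pairs was not counted. These counts are therefore a description.

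The deposited Pkm ratio was positive on 22 of 23 arrays, whichever tumour carried which dye. Of 4149 probes measured on all 23 arrays, 5 (0.121%) were positive on at least 22. With the bigenic tumour in Cy3 the turned ratio of Pkm averaged -0.70 ± 0.38 (SD, 11 arrays) in papillomas and -0.94 ± 0.46 (SD, 7 arrays) in carcinomas. With it in Cy5 the same ratio averaged 0.50 ± 0.27 (SD, 3 arrays) and 0.46 ± 0.20 (SD, 2 arrays). The side of Pkm thus followed the dye orientation and not the class, except on 1 papilloma array. Slc2a1 was positive as deposited on 20 of 23 arrays, and its turned ratio averaged -0.27 ± 0.51 with the bigenic papilloma in Cy3 and 0.56 ± 0.18 in Cy5. In carcinomas it averaged -1.16 ± 1.21 (SD, 7 arrays) with the bigenic tumour in Cy3 and 0.30 ± 0.18 (SD, 2 arrays) in Cy5. The Cy5 arrays were of pairs 237 with 241A and 236 with 257A, whose Cy3 arrays read -0.04 and -0.25. The negative carcinoma side of Slc2a1 was thus seen on Cy3 arrays only. Vegfa probe 1 was positive as deposited on 10 of 23 arrays, Vegfa probe 2 on 14 of 23 and Ndrg1 on 10 of 22.

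**Figure D3:**
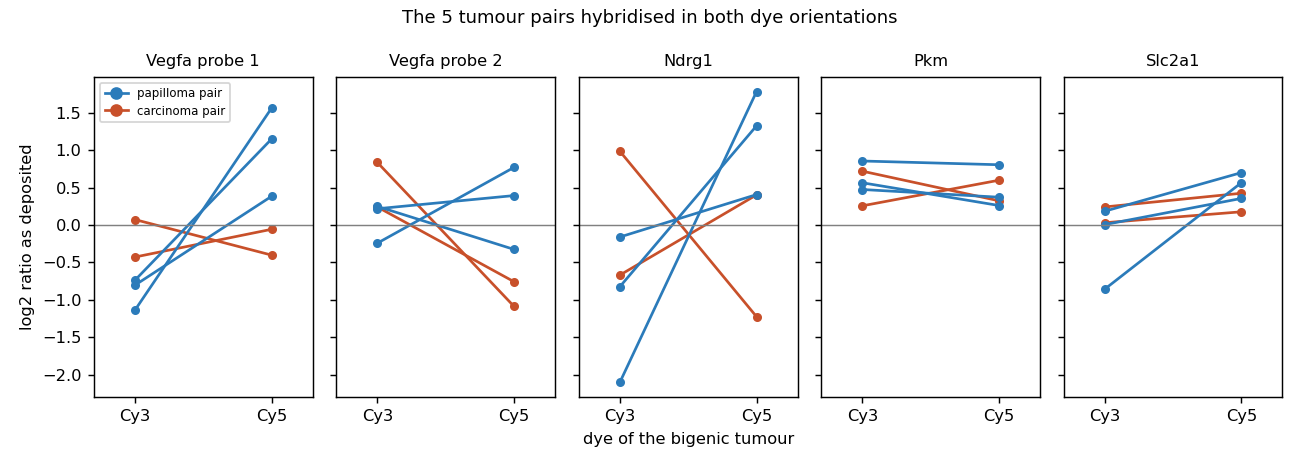
Log2 ratio as deposited (y axis) of each member probe in the 5 pairs measured in both orientations, with the bigenic tumour in Cy3 on the left and in Cy5 on the right of each panel; lines join the 2 arrays of a pair. The Ndrg1 lines all cross 0, while all 10 Pkm values lie above 0.

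In these 5 pairs the part of the deposited ratio that stayed when the dyes were exchanged (the mean of both arrays after centring) was 0.55 ± 0.18 (SD, n = 5) for Pkm and ran from 0.43 to 0.86. The part that followed the tumours averaged -0.07. This dye part does not enter the pair values, so it was tested: in limma over these 5 pairs alone it was 0.55 ± 0.12 (SE) for Pkm with an adjusted p of 0.279 and rank 11 of 8101 probes. There, 0 probes passed, against 1173 at an unadjusted p under 0.05. The dye part of Pkm was positive in 5 of 5 pairs, and the smallest two-sided exact sign p that 5 pairs allow is 0.0625. For Slc2a1 the dye part was 0.21 ± 0.23 (SD), smaller than its spread, and positive in 4 of 5 pairs. It was larger than its error in the same limma fit (SE 0.13). For Ndrg1 the dye part was 0.02 ± 0.19 (SD), for Vegfa probe 1 -0.01 ± 0.24 and for Vegfa probe 2 0.05 ± 0.27. Each of these was also smaller than its spread, and positive in 2 of 5 pairs.

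Over all 23 arrays, with a dye term per probe and the pair as a random block, 29 probes (0.323%) had a dye effect past the threshold, and Pkm had the smallest p, with an effect of 0.61 ± 0.10. Slc2a1 had an effect of 0.45 ± 0.17, not past the threshold. Most arrays carry the bigenic tumour in Cy3, so these estimates are not independent of how the members were chosen. With the term in the fit, Pkm moved to -0.09 ± 0.14 in papillomas and -0.31 ± 0.16 in carcinomas, and Slc2a1 to 0.14 ± 0.23 and -0.65 ± 0.27. Slc2a1 thereby changed side in papillomas, and Pkm there became smaller than its error. Ndrg1 stayed at 0.89 ± 0.22 and -0.78 ± 0.26, Vegfa probe 1 at 0.65 ± 0.25 and -1.002 ± 0.30 and Vegfa probe 2 at 0.19 ± 0.22 and -0.85 ± 0.26. In that fit 44 probes (0.491%) passed for the difference between the classes, 2 member probes among them, Ndrg1 and Vegfa probe 1, from which nothing is read because the members were chosen by this contrast.

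**Figure D4:**
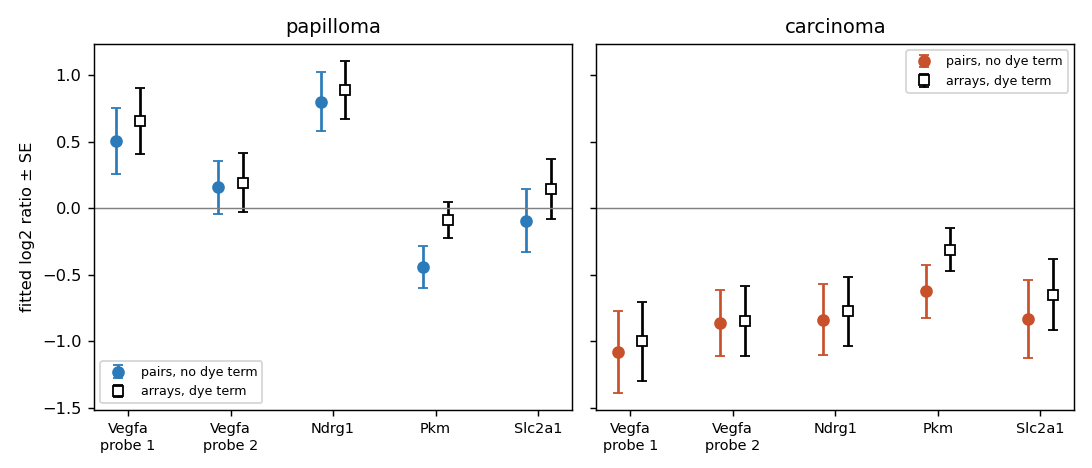
Fitted log2 ratio with its SE (y axis) of each member probe in papillomas (left) and carcinomas (right), without a dye term (filled circles) and with one (open squares). Pkm moves from -0.44 to -0.09 in papillomas and from -0.63 to -0.31 in carcinomas, while Ndrg1 and both Vegfa probes move by less than their SE.

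The carcinoma arrays agreed poorly with each other on the tumours they share. Tumours 236 and 237 were each set against 241A and 257A, so with additive log ratios the 4 Cy3 arrays of these pairs close a loop and the value of 236 with 241A follows from the other 3. Over 8114 probes the loop sum had an SD of 1.23, against 1.29 for 4 unrelated arrays with the same spreads, and a loop sum does not say which array is off. The array of 236 with 241A had the widest spread of the 4 (SD 0.88, others 0.49 to 0.58). Its correlation over probes was -0.16 with the Cy3 array of 237 with 241A and 0.14 with that of 236 with 257A, which share a tumour with it, and 0.50 with the array of 1684A with 242, which shares none. Among all carcinoma arrays of the same orientation, correlations ran from -0.16 to 0.55 for the 5 combinations that share 1 tumour and from -0.14 to 0.50 for the 17 that share none. Between arrays of opposite orientation they ran from -0.45 to -0.08 for the 4 combinations that share 1 tumour. For the 8 of opposite orientation that share none they ran from -0.39 to 0.17. The 2 pairs of arrays with both tumours in common, measured in opposite orientations, had 0.12 and 0.21. For Vegfa probe 1 the measured ratio minus the one that the other 3 Cy3 arrays give (the loop sum) was -2.41, a size at percentile 96.3 of all probes. The loop sum was -1.77 for Slc2a1, -1.67 for Pkm, 1.67 for Vegfa probe 2 and -0.57 for Ndrg1. Without the pair 236 with 241A the fitted carcinoma ratios were -0.96 ± 0.33 (SE) for Vegfa probe 1, -0.999 ± 0.25 for Vegfa probe 2, -0.91 ± 0.29 for Ndrg1, -0.49 ± 0.20 for Pkm and -0.62 ± 0.29 for Slc2a1. The sides stayed the same, and Ndrg1 was no longer past the threshold for the difference between the classes.

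Arrays were also split by their experiment numbers, which fall into 3 ranges. In papillomas Ndrg1 was positive on every array of each range, with means of 0.58, 0.81 and 0.97 over 4, 4 and 5 arrays. Vegfa probe 1 had means of 0.13, 0.66 and 0.75 in the same order. Vegfa probe 2 was negative on all 5 arrays of the first range, with a mean of -0.28, and had means of 0.24 and 0.53 in the others. Pkm had -0.65, -0.73 and -0.01 and Slc2a1 had -0.54, 0.02 and 0.25, and the arrays of the first range all carry the bigenic tumour in Cy3. Of the carcinoma arrays 8 lie in the second range, where Ndrg1 averaged -0.62, Vegfa probe 1 -0.86, Vegfa probe 2 -0.74, Slc2a1 -0.74 and Pkm -0.56. The other, of pair 1687 with 221, lies in the third range and was the lowest for Ndrg1.

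Markers of other cells moved across the same pairs. The mean ratio of 13 skeletal muscle genes was 2.15, 1.84 and 1.27 in carcinoma pairs 1687 with 221, 170 with 242 and 1684A with 242, which are among the 4 most negative for Vegfa probe 1 and Slc2a1. It was -0.05 in 236 with 241A, the fourth of these, and 0.01, -0.87 and -1.31 in 237 with 241A, 236 with 257A and 237 with 257A. In papillomas the muscle mean ran from -0.39 to 1.57, with 9 of 11 pairs positive. It was highest in 1684B with 257B, 228A with 257B and 1762D with 257B, at 1.57, 1.29 and 1.03. Vegfa probe 1 read 1.35, 0.56 and 0.99 in those pairs, and Slc2a1 0.25, 0.14 and -0.23. The part of muscle in these ratios was not tested. The mean of 8 endothelial genes, the cells that respond to Vegfa, ran from -0.33 to 0.88 in carcinomas with 4 of 7 pairs positive, and from -0.46 to 0.58 in papillomas with 6 of 11 positive. It was 0.15, 0.54 and 0.88 in carcinoma pairs 1687 with 221, 170 with 242 and 1684A with 242. In 236 with 241A, 237 with 241A, 236 with 257A and 237 with 257A it was -0.04, 0.32, -0.33 and -0.18. Suprabasal keratinocyte genes, 5 of them, had means from -2.62 to 0.98 in papillomas, where 3 of 11 pairs were positive and Ndrg1 was positive in all 10 measured, and from -0.45 to 1.00 in carcinomas, with 4 of 7 positive. Their part in the Ndrg1 ratio was not tested. Macrophage means ran from -0.96 to 0.87 in papillomas and from -0.37 to 1.79 in carcinomas. They were 0.93, 1.79 and 1.19 in carcinoma pairs 1687 with 221, 170 with 242 and 1684A with 242. In 236 with 241A, 237 with 241A, 236 with 257A and 237 with 257A they were -0.37, 0.44, 0.06 and 0.14. The part of macrophages in the member ratios was not tested. Neutrophil means ran from -0.65 to 0.95 in papillomas and from -1.16 to 0.71 in carcinomas. Fibroblast means ran from -1.68 to 0.85 and from -0.37 to 0.94. Basal keratinocyte means ran from -0.50 to 0.28 and from -0.77 to 0.18, and those of 2 erythroid genes from -1.37 to 0.84 and from -0.89 to 1.01.

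The wider pathway was read from lists of related genes, of which 80 probes of 74 genes were tested. None of these probes passed in either class alone (0 in limma, against 11 at an unadjusted p under 0.05 in papillomas and 14 in carcinomas). Of them 47 were positive in papillomas, with a median of 0.04, and 36 in carcinomas, with a median of -0.05. Among all tested probes 54.1% were positive in papillomas (median 0.02) and 49.0% in carcinomas (median -0.01). For the difference between the classes 1 of the 80 passed, Bhlhe40, against 0.245% of all tested probes. The lists and the named genes were chosen with earlier results of these data known, so nothing is read from these counts.

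Other hypoxia-induced genes outside glycolysis were represented by 24 probes of 21 genes. In papillomas 16 were positive, with a median of 0.08, and in carcinomas 6, with a median of -0.14. Bhlhe40, a transcriptional repressor induced by low oxygen, had fitted ratios of 0.80 ± 0.20 (SE) in papillomas, with 9 of 11 pairs positive, and -0.77 ± 0.24 in carcinomas, with 0 of 7 positive. Its difference of -1.57 ± 0.31 passed the threshold (limma adjusted p = 0.0332). Bhlhe40 was named with earlier results of these data known, so the call is a description. That call was lost in 11 of 18 fits that left out 1 pair (-1.69 to -1.41), with linked tumours averaged (-1.49), with the array number as a replicate block (-1.63) and with the range of experiment numbers as a term (-1.06). Bhlhe40 had a dye term of 0.48 ± 0.15, and with it in the fit its ratios were 1.06 and -0.51. Tfrc, the transferrin receptor, had -0.94 ± 0.23 in papillomas (limma adjusted p = 0.149). Mt1, a metal-binding metallothionein, had -0.89 ± 0.24 there (limma adjusted p = 0.211). In carcinomas 7 of the 24 probes had an unadjusted p under 0.05 in limma, against 9.88% of all probes. Lox, Igfbp3, Trf and P4ha2 were positive among these, at 0.62, 0.65, 0.66 and 0.37. Bhlhe40, Mt1 and Edn1 were negative, at -0.77, -0.67 and -0.45.

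The relatives of Vegfa did not share one pattern. Of 16 probes for 14 genes of the VEGF ligands, their receptors and opposing ligands, 10 were positive in papillomas (median 0.03) and 12 in carcinomas (median 0.22). Pgf, a VEGF family ligand of the receptor Flt1, had 0.41 ± 0.21 in papillomas and -1.01 ± 0.26 in carcinomas, values on the same sides as Vegfa probe 1. The carcinoma value had a limma adjusted p of 0.136 and the difference one of 0.0749. Vegfc, the ligand of lymphatic vessel growth, had 0.48 ± 0.19 and -0.58 ± 0.22 (limma adjusted p = 0.444 and 0.335). Thbs2, a matrix protein that opposes vessel growth, had 0.89 ± 0.30 in carcinomas and was positive in 7 of 7 pairs (limma adjusted p = 0.273).

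Among the other glycolytic enzymes, 3 of 14 probes (13 genes) were positive in papillomas, with a median of -0.10, and 5 in carcinomas, with a median of -0.17. Pfkfb4, which sets the level of an activator of glycolysis, had -1.24 ± 0.38 in papillomas (limma adjusted p = 0.280). The aldolase gene Aldoa had -0.47 ± 0.16 in carcinomas (limma adjusted p = 0.261), with a dye term of 0.31 ± 0.09 on the same side as that of Pkm. The lactate dehydrogenase gene Ldhb had -0.44 ± 0.19 in papillomas and 0.21 ± 0.24 in carcinomas.

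Of 10 other glucose transporter and glycogen genes, 8 were positive in papillomas (median 0.15) and 4 in carcinomas (median -0.06). The fructose transporter gene Slc2a5, of the same family as Slc2a1, had 0.56 ± 0.22 in papillomas (limma adjusted p = 0.454). Slc2a8 had 0.20 ± 0.13 there, and the glycogen synthase gene Gys1 had -0.27 ± 0.18 in carcinomas. Of 8 genes that handle pyruvate and lactate, 4 were positive in papillomas (median 0.02) and 6 in carcinomas (median 0.09). The lactate carrier gene Slc16a1 had -0.50 ± 0.18 in papillomas (limma adjusted p = 0.418). Pdk2, a kinase that slows pyruvate dehydrogenase, had 0.33 ± 0.16 in papillomas, and Pdp1, the phosphatase that acts against such kinases, had 0.33 ± 0.24 in carcinomas.

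Of 6 genes of the HIF system, 5 were positive in papillomas (median 0.07) and 2 in carcinomas (median -0.09). Egln1, the main HIF prolyl hydroxylase, had 0.23 ± 0.13 in papillomas and -0.35 ± 0.16 in carcinomas (limma adjusted p = 0.589 and 0.449). Cited2, which competes with HIF for a coactivator, had 0.34 ± 0.19 in carcinomas, and Epas1, which encodes HIF-2 alpha, had -0.18 ± 0.15 there. The relatives of Ndrg1 stayed near 0. Ndrg2 had -0.05 ± 0.12 in papillomas and -0.08 ± 0.16 in carcinomas, and Ndrg3 had 0.05 ± 0.16 and 0.06 ± 0.18.

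**Figure D5:**
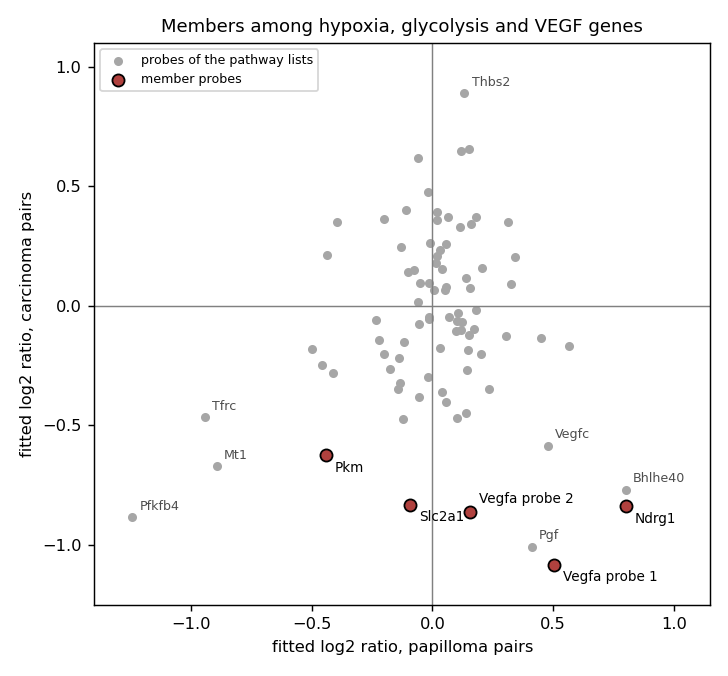
Fitted log2 ratio in papilloma pairs (x axis) against carcinoma pairs (y axis) for the 80 probes of the pathway lists (grey) and the 5 member probes (red). Ndrg1 and Vegfa probe 1 lie at the lower right with Bhlhe40, Pgf and Vegfc, and Pkm lies at the lower left.

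The genes whose ratios were most like each member were sought over the pairs by Spearman correlation, with each class mean removed. Pkm was most like Elob (0.90), a subunit of the VHL ubiquitin ligase, Eef1a1 (0.89), a translation elongation factor, and the ribosomal protein gene Rps15a (0.87). Elob had a dye term of 0.36 ± 0.10 on the same side as that of Pkm, and all but 5 of the 18 pairs were measured in 1 orientation only. The part of the dye in this likeness was not tested. Slc2a1 was most like Lactb2 (0.88), Fam162a (0.87) and Zwint (0.85). Vegfa probe 1 was most like the unnamed gene models Gm4285 (0.88) and Gm136 (0.87) and the erythroid membrane gene Rhag (0.86), and Vegfa probe 2 was most like Muc13 (0.82), Ppargc1a (0.81) and Krtap22-2 (0.79). Ndrg1 was most like Ttf2 (0.81), Flt3l (0.80) and Krtap3-3 (0.78). The 2 Vegfa probes shared none of these genes. The correlations rest on 16 to 18 pairs and on the choice among 6211 to 6386 genes, so high values arise from the choice itself.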

How the data were processed

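RNA of 1 bigenic and 1 monogenic tumour was coupled to Cy3 or Cy5 and hybridised to each of 23 arrays, per the labels' protocols. The authors deposited 1 signed ratio per probe and array, taken here as log2; the files and labels name neither the base nor the numerator, and the scanner and any normalization were not given in the sources used here. Of 9596 probes, 7486 had 1 gene symbol, 483 several and 1627 no entry; 7395 were found by Entrez identifier and 0 symbols changed.

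Ratios were turned by dye orientation, arrays centred on their median, and arrays of the same 2 extracts averaged to 18 pairs, weighted by array number. Probes with at least 8 papilloma and 5 carcinoma pairs (8966) were fitted with limma 3.58.1 in R 4.3.3, Benjamini-Hochberg threshold 0.05, and the fits were tested on simulated data. Missing values made up 0.24% to 29.9% of an array and were not imputed. Array numbers shared by the classes did not pair the arrays (correlations -0.25 to 0.16).

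The members, the gene lists and the named genes were chosen with earlier results of these data known. Named genes were all member probes, per pathway list the genes past the threshold in a class and otherwise the 3 of smallest unadjusted p, and the 3 genes most alike to each member. Bhlhe40 was also called for the difference. Of the other hypoxia-induced genes, those at an unadjusted p under 0.05 in carcinomas were named as well. The analyses of the loop of 4 carcinomas were added after its values were seen.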

Additional observations from a re-analysis of the deposited data

Results flagged for a closer look

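In papillomas, the Ndrg1 ratio of pair 1684B with 257B was 1.94, far above the other 9 measured pairs, of which the next highest was 1.05. It was the mean of 2 arrays with exchanged dyes, which read 2.06 and 1.82 after turning. Chance flags about 1 in 20 such groups, and 6 groups of member values were of a size that could be tested. Without this pair the fitted papilloma ratio of Ndrg1 was 0.59 ± 0.22 (SE) and its difference between the classes -1.43 ± 0.33.

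The Ndrg1 ratio differed between the classes by -1.64 ± 0.35 (SE, carcinoma minus papilloma) in limma's test of the difference, with papillomas at 0.80 and carcinomas at -0.84. Ndrg1 was chosen with this contrast known.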

How the results depend on the processing

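The member probes kept their sides in both classes under all 13 alternatives to the pair fit, except that Slc2a1 in papillomas turned to 0.14 with a dye term, and to 0.0036 at the highest when 1 pair was left out. Without each pair in turn, Ndrg1 lost its call for the difference in 15 of 18 fits (values -2.03 to -1.42). It also lost it with the bigenic tumour as a block (-1.67), linked tumours averaged (-2.17) and the range of experiment numbers as a term (-1.94). Over the 13 alternatives the carcinoma ratio ran from -1.91 to -0.77 for Vegfa probe 1, from -1.83 to -0.73 for Vegfa probe 2, from -1.47 to -0.69 for Ndrg1, from -1.38 to -0.53 for Slc2a1 and from -0.94 to -0.31 for Pkm. Numbers of probes called moved more. In papillomas (1 probe) they were 0 without centring, 49 with scaled arrays, 43 with quantile normalization, 5 with a dye term, 15 with Cy3 arrays only, 2 without weights, 16 with the monogenic tumour as a block, 0 with linked tumours averaged, 20 with a term for the range of experiment numbers, 0 without pair 1762D with 257B, and 0 to 7 without each pair in turn. In carcinomas (5) they were 242 with Cy3 arrays only, 38 without weights, 27 with the monogenic block, 0 with linked tumours averaged, 3 with the range term, 11 without 1762D with 257B, and 3 to 109 without each pair, the most without 236 with 257A. For the difference (22) they were 39 scaled, 38 quantile, 44 with the dye term, 39 and 13 with the monogenic and bigenic blocks, 0 with linked tumours averaged, 2 with the range term, and 8 to 44 without each pair, the most again without 236 with 257A. With the array number as a replicate block they were 11, and Ndrg1 was at -1.74. The linked averages called 0 in limma against 809, 1303 and 675 at an unadjusted p under 0.05. For the dye effect (29) they were 1 without the block, 1 uncentred, 161 scaled, 0 from the 5 swapped pairs alone and 0 to 0 without each of these, all chosen after seeing the data. The causes were not tested. Few pairs limit the precision.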
